A study of Homo sapiens with 20 samples.

Results

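The kinesin superfamily, the motor proteins that walk along or shorten microtubules, was followed in 5 human cancer cell lines with and without torkinib (PP242), an inhibitor of the MTOR kinase. Members were the rows whose gene symbol is KIF with a number, or KIFC with a number, and whose counts summed to 20 or more over the 20 libraries. Of 42 matching symbols, 38 were kept, among 31339 features with a count and 50775 features in all. The symbols left out were KIF2B, KIF4B, KIF19 and KIF25, with 0, 3, 1 and 1 counts, and the least counted of those kept were KIF17 with 119, KIF5A with 253 and KIF6 with 263 counts. The 38 were placed by known role in 13 mitotic, 15 transport, 5 cilium and 5 other kinesins, and all 38 were among the 16698 genes tested.

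A kinesin couples the breakdown of ATP in its motor domain to steps along a microtubule, or, in a few families, to the removal of tubulin from microtubule ends. Mitotic kinesins build the bipolar spindle, move and align chromosomes, and organise the central spindle at which the daughter cells separate, and most of them are made mainly by dividing cells, late in the cell cycle. Transport kinesins carry vesicles, organelles, proteins and RNA in dividing and resting cells alike, often through light chains or adaptor proteins, while dynein moves cargo the other way.

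The lines were 94T778, a well differentiated liposarcoma, A375 and SKMEL28, both melanomas, and SKBR3 and AU565, both breast cancers, which are known to derive from the same patient and so are not independent of each other. Each line was left untreated or received torkinib for 72 h, at 10 µM in 94T778, at 4 µM in A375, SKMEL28 and AU565 and at 0.8 µM in SKBR3; per the labels the doses were picked so that the cell cycle stopped while cells stayed viable. Line and dose therefore cannot be told apart for 94T778 and SKBR3, and culture medium also differed between lines. No vehicle is named for the untreated cells. There were 2 libraries in each of the 10 groups, and nothing says that they came from separate cultures. A p-value here therefore reflects only the spread between libraries of the same group, estimated jointly over all groups, which may be technical. The study was designed around DNA repair genes.

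Libraries held 4040023 to 9737903 counted reads, of which 4559 to 20362 (0.0824 to 0.277%) fell on kinesins. Summed melanocyte markers stood at 7612 to 11559 CPM (counts per 1000000 counted reads) in SKMEL28 and 629 to 712 in A375, and breast and HER2 markers at 11424 to 23246 in SKBR3 and AU565. In A375 the median melanocyte marker was only at 0.936 to 1.73 CPM, so few genes carried that sum. The breast and HER2 sum in A375 was of similar size, at 648 to 739 CPM. Markers of the 12q amplicon of liposarcoma reached 10366 to 11932 CPM in 94T778. Blood cell markers did not exceed 19.1 CPM, and endothelial markers did not exceed 157. The endothelial sum was higher with torkinib in the breast lines. It was 16.7 and 21.0 untreated and 148 and 157 with torkinib in SKBR3, and 29.2 and 28.6 and then 78.7 and 80.9 in AU565. Few genes carried this rise. The median endothelial marker was at 0.919 and 0.409 CPM and then 0.361 and 0.443 in SKBR3. In AU565 the median was 1.69 and 1.26 and then 0.749 and 0.499. The replicates of untreated SKBR3 stood further apart than any other pair, with a chi-square per gene of 12.2 against 1.37 to 3.37 elsewhere and mitochondrial shares of 7.63 and 4.44%. Untreated A375 replicate 1 held 27 genes typical of 94T778 at a median of 2.12% of their 94T778 level, against 0.280% in replicate 2. Untreated SKBR3 replicate 2 held 126 genes typical of SKMEL28 at 0.377% of their SKMEL28 level, against 0.117% in replicate 1. The part of these differences in the kinesin results was not tested beyond leaving out each library.

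Promoter sequences, 250 bases before to 50 bases after a gene's start (RefSeq, GRCh38.p14), were found for 31 of the 38 kinesins. KIF13B, KIF21B, KIF26B, KIF27, KIF5A, KIFC2 and KIFC3 had no entry. Each was searched on both strands for the CHR string TTTGAA or its variant TTCGAA, which in promoters of many division genes is bound by the MuvB complexes that switch them off in resting cells and on before mitosis, and for CCAAT, the string of the factor NF-Y. No motif overlapped another. The 7 promoters below are shown because they belong to the kinesins on which the results turn: KIF4A, KIF14 and KIFC1 as mitotic kinesins with both strings, KIF20A as the mitotic kinesin with the largest average fall and no CHR string, KIF2A as the mitotic kinesin with the smallest fall, KIF24 as a cilium kinesin and KIF1C as a transport kinesin that fell in all 5 lines. Sequences run 5′ to 3′ on the strand of the gene, with motif matches in capitals (ATTGG and TTCAAA are the same motifs read on the other strand). They lie at chrX:70289854-70290153 (plus strand), chr1:200620702-200621001 (minus strand), chr6:33391573-33391872 (plus strand), chr5:138178862-138179161 (plus strand), chr5:62305956-62306255 (plus strand), chr9:34329219-34329518 (minus strand) and chr17:4997700-4997999 (plus strand).
KIF4A: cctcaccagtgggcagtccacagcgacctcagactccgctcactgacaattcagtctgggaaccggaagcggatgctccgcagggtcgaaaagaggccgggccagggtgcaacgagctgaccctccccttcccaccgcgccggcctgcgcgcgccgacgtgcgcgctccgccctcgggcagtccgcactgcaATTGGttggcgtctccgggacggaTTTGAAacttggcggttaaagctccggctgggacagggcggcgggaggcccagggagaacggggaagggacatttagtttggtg
KIF14: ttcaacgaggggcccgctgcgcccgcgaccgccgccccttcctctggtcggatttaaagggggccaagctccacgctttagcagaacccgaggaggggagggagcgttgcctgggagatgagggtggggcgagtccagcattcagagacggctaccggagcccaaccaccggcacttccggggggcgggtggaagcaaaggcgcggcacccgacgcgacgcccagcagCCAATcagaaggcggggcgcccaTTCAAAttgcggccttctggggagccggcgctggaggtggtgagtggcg
KIFC1: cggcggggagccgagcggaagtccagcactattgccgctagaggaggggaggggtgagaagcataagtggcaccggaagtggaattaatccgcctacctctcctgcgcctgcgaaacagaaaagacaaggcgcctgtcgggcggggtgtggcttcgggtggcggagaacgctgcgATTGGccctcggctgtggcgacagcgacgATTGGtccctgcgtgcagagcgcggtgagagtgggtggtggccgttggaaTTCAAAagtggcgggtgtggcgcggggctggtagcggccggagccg
KIF20A: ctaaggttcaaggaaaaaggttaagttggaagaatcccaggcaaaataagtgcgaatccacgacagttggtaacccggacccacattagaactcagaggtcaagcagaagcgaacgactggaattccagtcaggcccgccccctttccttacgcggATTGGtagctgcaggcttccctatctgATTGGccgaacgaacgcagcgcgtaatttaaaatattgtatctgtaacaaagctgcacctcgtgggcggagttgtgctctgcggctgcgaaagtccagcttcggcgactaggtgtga
KIF2A: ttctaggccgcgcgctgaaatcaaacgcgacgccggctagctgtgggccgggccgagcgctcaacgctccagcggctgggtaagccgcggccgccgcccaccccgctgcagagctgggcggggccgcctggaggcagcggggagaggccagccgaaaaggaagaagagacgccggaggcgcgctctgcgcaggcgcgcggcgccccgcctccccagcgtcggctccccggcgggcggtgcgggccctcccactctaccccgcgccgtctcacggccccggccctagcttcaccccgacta
KIF24: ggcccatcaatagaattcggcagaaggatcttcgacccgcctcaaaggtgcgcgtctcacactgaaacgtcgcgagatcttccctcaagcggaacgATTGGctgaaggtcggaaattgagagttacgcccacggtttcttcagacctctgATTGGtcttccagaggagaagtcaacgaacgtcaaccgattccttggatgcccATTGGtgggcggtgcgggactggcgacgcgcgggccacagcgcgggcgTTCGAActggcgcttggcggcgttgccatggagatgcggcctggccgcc
KIF1C: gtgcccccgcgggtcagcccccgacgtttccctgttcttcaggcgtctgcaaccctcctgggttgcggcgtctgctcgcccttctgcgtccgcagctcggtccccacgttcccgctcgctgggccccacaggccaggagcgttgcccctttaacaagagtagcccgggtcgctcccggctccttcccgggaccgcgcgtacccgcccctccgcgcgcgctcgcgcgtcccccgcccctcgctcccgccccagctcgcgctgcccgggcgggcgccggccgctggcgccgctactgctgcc

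Counted by gene, 10 of 13 mitotic kinesins (76.9%) held a CHR string or its variant in at least 1 promoter, against 19.5% of 27305 genes. Among the other kinesins the string was found in KIF5B, 1 of 11 transport kinesins with a promoter, and in KIF24, 1 of 4 cilium kinesins, and in 0 of 3 other kinesins. CCAAT was present in 10 of 13 mitotic and 4 of 11 transport kinesins, against 39.7% of all genes. Both strings together were present in 9 of 13 mitotic kinesins, in KIF5B and in KIF24, against 7.85% of all genes. KIF2C and KIF2A held neither string, and their average log2 changes with torkinib were -3.51 and -0.35. KIF5B, with both strings, changed by -0.12 on average. In KIF4A the CHR string began at position -34 and the CCAAT at -58, counted from the gene's start. In KIF14 and KIFC1 the CHR strings began at 2 and 5, just inside the transcript. KIF24 carried the variant at 2 and CCAAT at -154, -100 and -47, and KIF20A carried CCAAT at -94 and -67 with no CHR string. The E2F strings TTTCGCGC or TTTGGCGC were present in 1 mitotic kinesin, KIF15, against 1.40% of all genes. The promoters of mitotic kinesins had a median GC content of 62.5% and those of transport kinesins 70.5%, against 58.7% for all promoters, so strings rich in A and T had unequal odds by base content alone. A match is a description of letters and not of binding.

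Mitotic kinesins were lower with torkinib in every line, except KIF2A in SKBR3, while transport kinesins moved in both directions with smaller median changes. Some transport kinesins changed as much as mitotic ones did, such as KIF5C in A375 (log2 change -2.00) and KIFC2 in 94T778 (1.81). Under the quasi-likelihood test of edgeR, adjusted by Benjamini-Hochberg over all genes and called at an adjusted p under 0.05, all 13 mitotic kinesins fell in 94T778, A375, SKMEL28 and AU565, and 12 of 13 fell in SKBR3, where KIF2A was not called. Of all genes, 23.8% were called lower in 94T778, 24.3% in A375, 23.7% in SKMEL28, 28.6% in AU565 and 26.7% in SKBR3. The median log2 change of the 13 was smallest in A375 (-1.87) and 94T778 (-2.42), -2.67 in SKMEL28, and largest in AU565 (-3.74) and SKBR3 (-4.47), beside medians of all genes between -0.03 and 0.03. In terms of level, the median mitotic kinesin kept 27.2% of its untreated level in A375, 18.7% in 94T778, 15.8% in SKMEL28, 7.19% in AU565 and 4.45% in SKBR3. In bulk RNA, fewer dividing cells and less of these RNAs per cell cannot be told apart, and the labels say that the doses stopped the cell cycle.

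Of the 15 transport kinesins, 3 fell and 4 rose in 94T778, 7 fell and 2 rose in A375, 4 fell and 4 rose in SKMEL28, 3 fell and 7 rose in SKBR3, and 4 fell and 3 rose in AU565. The shares of all genes called higher were 23.7, 18.5, 20.4, 24.6 and 26.9% in that order. Their medians were -0.04, -0.23, -0.03, 0.40 and -0.07 over the transport kinesins with more than 3 counts in a group. The transport counts stood nearer to the shares of all genes than the mitotic counts did in each line. Across lines, 14 of 38 kinesins fell in all 5, among them 12 mitotic ones, against 4.62% of all genes. The other 2 were KIF24 and KIF1C. Only KIFC2 rose in all 5 lines, against 2.26% of all genes, and 7 of 38 kinesins were called in opposite directions in different lines, against 24% of all genes.

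**Figure D1:**
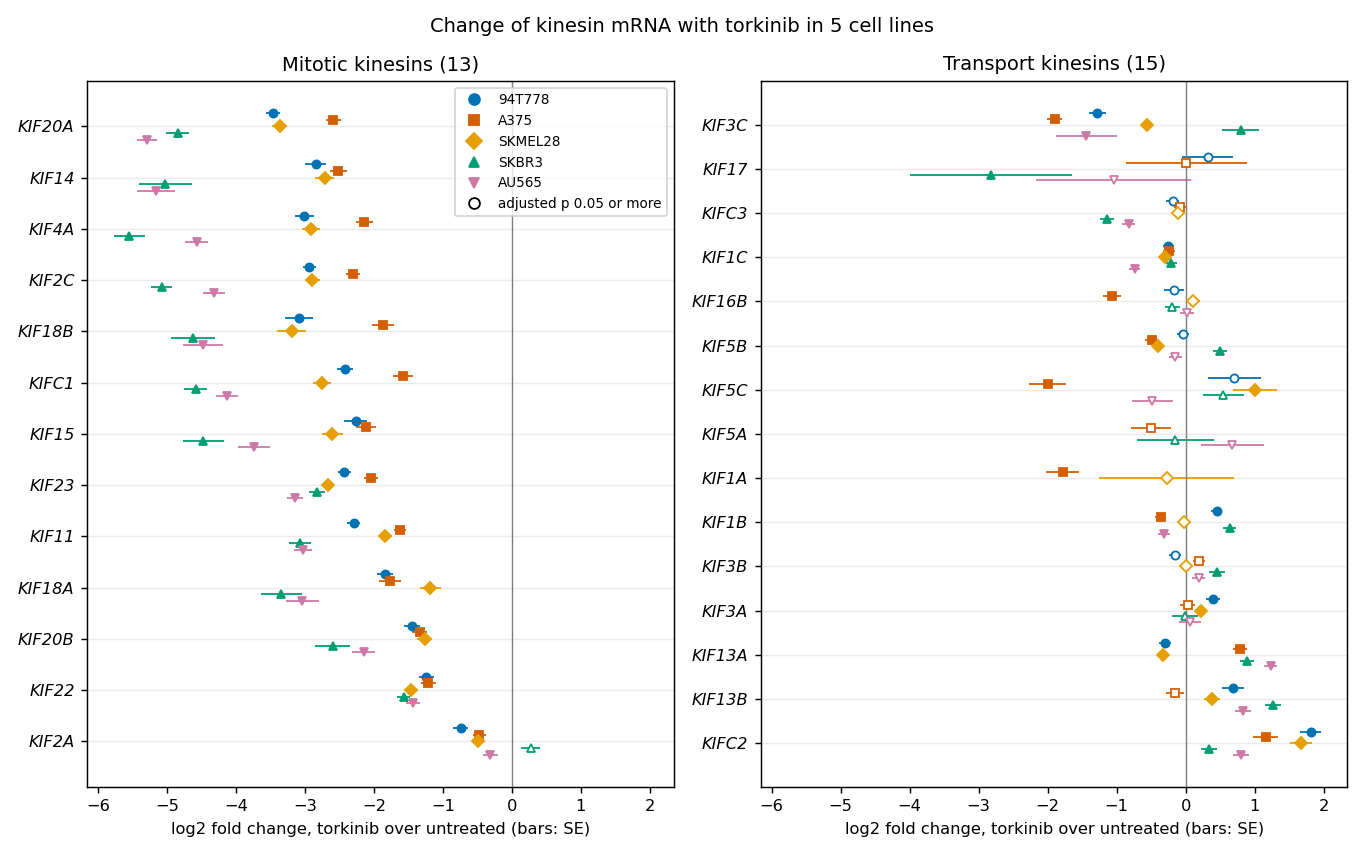
Log2 fold change of each mitotic (left) and transport (right) kinesin with torkinib, 1 point per line, with bars for the standard error and open symbols where the edgeR adjusted p was 0.05 or more. Genes are ordered by their average change, and gene-line pairs with 3 or fewer counts in both groups are not drawn. Mitotic points lie left of 0 except KIF2A in SKBR3 at 0.27, while transport points lie on both sides.

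The kinesins of cytokinesis and the central spindle included the member with the largest average fall. KIF20A (MKLP2), which brings the chromosomal passenger complex to the central spindle, stood at 136 and 134 normalised CPM in the untreated 94T778 libraries and 12.1 and 12.3 with torkinib. In A375 it went from 101 and 106 to 16.7 and 17.9, and in SKMEL28 from 88.7 and 84.1 to 8.18 and 8.52. It went from 75.5 and 68.1 to 2.78 and 2.23 in SKBR3 and from 98.9 and 102 to 2.09 and 2.93 in AU565. The untreated libraries were above the torkinib libraries in every line without overlap. As ratios between lines, untreated KIF20A levels differed far less than the levels left after torkinib. Its average log2 change over the 5 lines was -3.91 (SE 0.06; edgeR adjusted p = 1.15e-35), the largest of the family, and the fall in AU565 reached -5.29.

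KIF14, which acts with citron kinase at the midbody, was at 50.02 and 54.9 CPM in untreated 94T778 and 8.83 and 5.79 with torkinib, and at 107 and 106 and then 16.4 and 21.5 in A375. In SKMEL28 it was at 66.8 and 73.5 and then 11.3 and 10.01. In SKBR3 it went from 12.9 and 16.7 to 0.595 and 0.319, and in AU565 from 29.7 and 30.4 to 0.760 and 0.878. No torkinib library overlapped an untreated one, and both breast lines ended below 1 CPM from a lower start than the other lines. The average change was -3.65 (SE 0.10; edgeR adjusted p = 4.37e-28). KIF23 (MKLP1), the motor of the centralspindlin complex, went down by a log2 change of -2.43 in 94T778, -2.82 in SKBR3 and -3.15 in AU565. KIF20B, a midbody kinesin with a part in the completion of cytokinesis, changed by -1.26 in SKMEL28 and -2.59 in SKBR3.

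Kinesins that act on chromosomes changed by very different amounts. KIF4A, a chromokinesin that also works with PRC1 on the central spindle, was at 90.98 and 90.4 CPM in untreated 94T778 and 12.9 and 9.69 with torkinib. It went from 88.8 and 96.5 to 22.4 and 19.4 in A375 and from 72.9 and 83.1 to 11.6 and 9.06 in SKMEL28. In SKBR3 it went from 62.99 and 70.03 to 0.992 and 1.75, and in AU565 from 91.9 and 96.8 to 2.66 and 4.97. The groups did not overlap in any line, and the SKBR3 change of -5.54 (SE 0.22; edgeR adjusted p = 1.18e-21) was the largest fall of any kinesin in any line. KIF4A has a near-identical copy, KIF4B, so reads of both could be set aside as not unique.

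KIF2C (MCAK), which removes tubulin at centromeres and so frees wrongly attached microtubules, stood at 146 and 154 CPM in untreated 94T778 and 21.1 and 18.1 with torkinib. It stood at 132 and 130.04 and then 27.5 and 25.2 in A375, and at 108 and 116 and then 16.03 and 14.1 in SKMEL28. It dropped from 103 and 107 to 2.78 and 3.35 in SKBR3 and from 65.7 and 71.1 to 4.18 and 2.78 in AU565. Again the groups were apart in all 5 lines. The average change was -3.51 (SE 0.06; edgeR adjusted p = 1.2e-34). KIF18A, which damps chromosome oscillation at the metaphase plate, changed by -1.18 on the log2 scale in SKMEL28 and -3.04 in AU565. Its relative KIF18B, which shortens astral microtubules, changed by -1.87 in A375 and -4.62 in SKBR3.

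KIF22 (Kid), the chromokinesin that pushes chromosome arms away from the poles, fell in a narrow range over the lines. Its untreated and torkinib levels were 52.4 and 54.9 and then 22.5 and 23.03 CPM in 94T778 and 77.99 and 84.3 and then 35.4 and 34.7 in A375. They were 76.6 and 72.1 and then 30.1 and 22.999 in SKMEL28, 124 and 135 and then 45.2 and 42.4 in SKBR3, and 114 and 122 and then 43.9 and 43.4 in AU565. The groups were apart in every line, and the breast lines, lowest for most mitotic kinesins after torkinib, kept the highest KIF22. Its average change was -1.38 (SE 0.05; edgeR adjusted p = 7.02e-25), with line values from -1.57 to -1.21. It was the 1 mitotic kinesin whose change was not called different between the 5 lines (edgeR adjusted p = 0.127), which does not show that the changes were equal.

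KIF2A, a relative of KIF2C that trims spindle poles and is also active outside mitosis in growing nerve cells, changed least. It was at 66.9 and 67.2 CPM in untreated 94T778 and 40.5 and 39.8 with torkinib, at 119.9 and 109 and then 76.8 and 88.8 in A375, and at 104 and 105 and then 78.1 and 70.3 in SKMEL28. In AU565 it was at 59.3 and 61.96 and then 49.2 and 48.3. In SKBR3 the order was turned round, with 19.6 and 28.3 untreated and 28.4 and 30.1 with torkinib. That SKBR3 difference of 0.27 was not called (edgeR adjusted p = 0.102), but without untreated SKBR3 replicate 2 it was 0.58 (edgeR adjusted p = 0.00256). The call in AU565 (-0.31; edgeR adjusted p = 0.0111) was lost in 3 alternatives, with adjusted p up to 0.0960. The average change was -0.35 (SE 0.05; edgeR adjusted p = 9.25e-08).

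**Figure D2:**
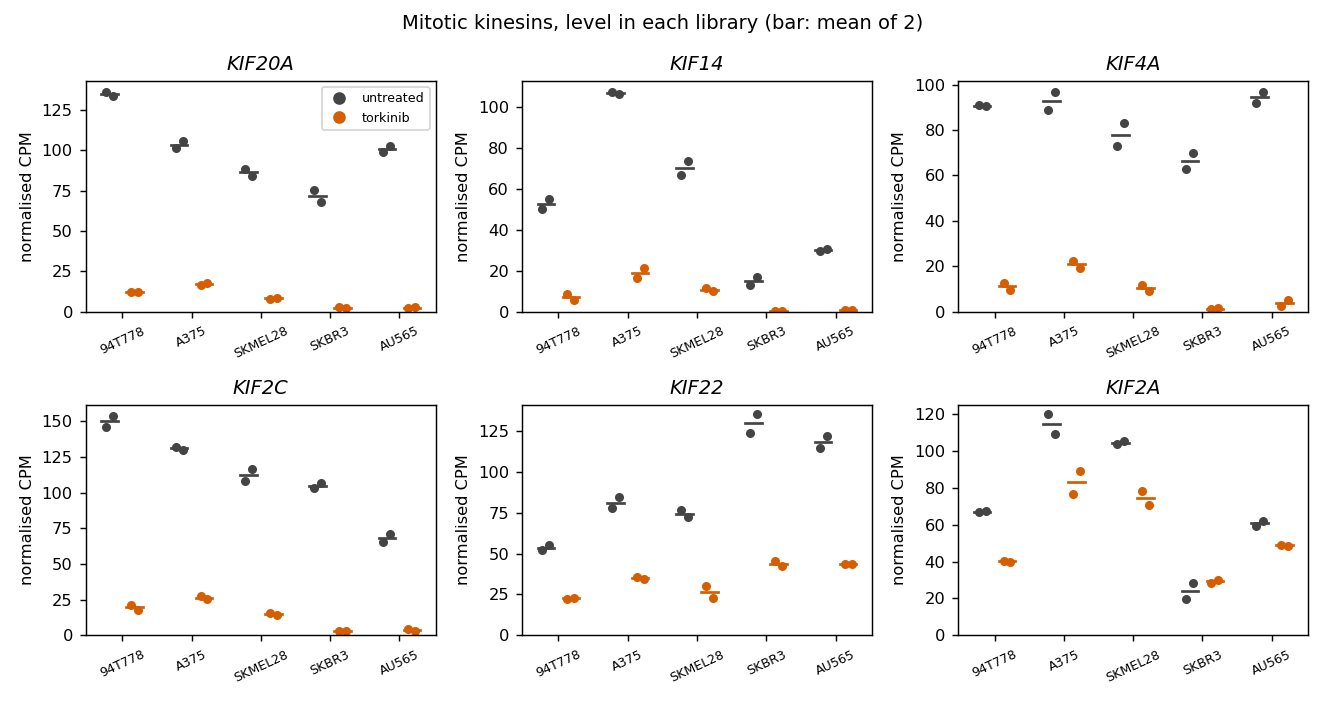
Normalised CPM of KIF20A, KIF14, KIF4A, KIF2C, KIF22 and KIF2A in each of the 20 libraries (points, 2 per group) with the mean of each group (short line), untreated in grey and torkinib in orange. Torkinib libraries lie below untreated ones in every line except for KIF2A in SKBR3, where they were at 28.4 and 30.1 against 19.6 and 28.3.

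Motors of spindle assembly fell between these extremes. KIF11 (Eg5), which slides microtubules apart to separate the poles, averaged 193 ± 4.09 CPM (SD, n = 2) in untreated A375 and 62.8 ± 3.68 with torkinib, and 44.6 ± 1.78 and then 5.31 ± 0.0706 in SKBR3. Its change ran from -1.62 in A375 to -3.07 in SKBR3. KIF15, which can keep a spindle bipolar beside KIF11, changed by -2.11 in A375 and -4.47 in SKBR3. KIFC1 (HSET), the motor that walks to minus ends and gathers extra centrosomes into poles, changed by -1.58 in A375, -2.42 in 94T778, -2.75 in SKMEL28, -4.13 in AU565 and -4.58 in SKBR3. All 3 had torkinib libraries below untreated libraries in each line. Of the 13 mitotic kinesins this held for 12 in SKBR3 and for all 13 in the other lines, against 34.2, 37, 35.4, 34.3 and 36.9% of all genes tested in 94T778, A375, SKMEL28, SKBR3 and AU565. Torkinib libraries stood above both untreated ones for 1 mitotic kinesin, KIF2A in SKBR3, and for 36.6, 32, 33.8, 33.1 and 37.5% of all genes in that order.

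The size of the fall differed between lines for 12 of 13 mitotic kinesins and for 29 of all 38 (edgeR's F test of equal change in the 5 lines), against 68.4% of all genes. Among the 13, the deepest fall was in SKBR3 for 9, in AU565 for 3 and in 94T778 for 1, KIF2A. The smallest was in A375 for 10 and in SKMEL28 for 2, and KIF2A was not lower in SKBR3. By point estimate SKBR3 thus had most of the deepest falls at the lowest dose of 0.8 µM, but dose and line differed together. SKBR3 was not tested against AU565, a line from the same patient. Their changes were close for KIF11, at -3.07 (SE 0.16) in SKBR3 and -3.02 (SE 0.13) in AU565. They lay further apart for KIF4A, at -5.54 (SE 0.22) and -4.57 (SE 0.17). Across A375, SKMEL28 and AU565, all at 4 µM, the change differed for 11 of 13 mitotic kinesins and 25 of 38 kinesins, against 52.5% of all genes. KIF22 (edgeR adjusted p = 0.260) and KIF2A (edgeR adjusted p = 0.516) were the exceptions.

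Pairs of these 3 lines were compared in tests added after the data were seen. The fall in AU565 was deeper than in A375 for 11 of 13 mitotic kinesins, with a median difference of -1.62, against 19.3% of all genes with a difference called below 0. It was deeper than in SKMEL28 for 11 of 13 (median difference -1.28, against 18.9%). The fall in SKMEL28 was deeper than in A375 for 6 of 13 (median difference -0.49, against 13.3%), and no mitotic difference was called the other way in any of the 3 pairs. The largest of these, KIF20A between AU565 and A375, was -2.70 (SE 0.23; edgeR adjusted p = 6.56e-12). For KIFC1, SKMEL28 and A375 differed by -1.17 (SE 0.21; edgeR adjusted p = 2.86e-05). MKI67, a proliferation marker from the partner lists, was picked after its values were seen. It fell in the same order of lines as the mitotic median, which a single picked gene does not extend to its list. Its mean went from 379 to 93.3 CPM in A375, 389 to 49.3 in 94T778 and 474 to 47.98 in SKMEL28. In AU565 it went from 241 to 11.9 and in SKBR3 from 186 to 6.76. The 12 division partners described below kept that order (medians -2.23, -2.27, -2.51, -3.83 and -4.28). The list of 10 other division genes, taken as a set, did not keep it (medians -2.21 in A375, -2.70 in SKMEL28, -3.08 in 94T778, -4.33 in SKBR3 and -4.35 in AU565). The part of cell division in the kinesin differences was not tested.

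Summed over a class, mitotic kinesins held 44.1 ± 0.572 (SD, n = 2) to 50.2 ± 0.646% of kinesin reads in untreated lines. With torkinib the share was lowest in SKBR3 (11.7 ± 0.374%) and AU565 (13.2 ± 0.288%), followed by 94T778 (16.7 ± 0.855%), SKMEL28 (18.02 ± 0.986%) and A375 (28.996 ± 1.37%). As CPM of all counted reads, the mitotic sum in SKBR3 went from 655 ± 35.2 to 99.9 ± 1.76 and in A375 from 1374 ± 5.37 to 454 ± 40.7. The transport sum stayed of the same order, at 1074 ± 9.08 and then 1156 ± 13.6 in 94T778, 1149 ± 49.4 and then 971 ± 25.2 in A375, and 602 ± 45.1 and then 682 ± 33.5 in SKBR3. Such sums follow the longest and most abundant genes and were given no test.

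**Figure D3:**
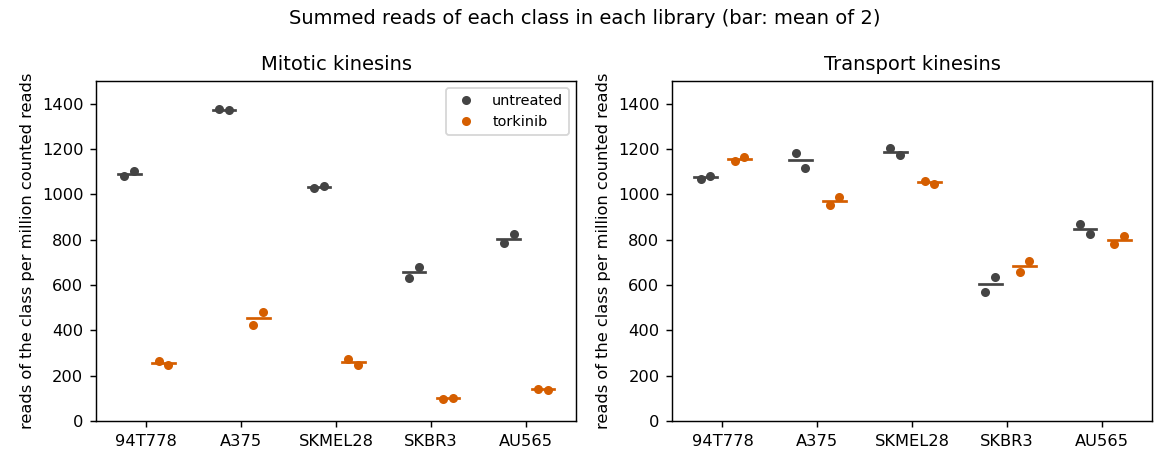
Reads of the 13 mitotic (left) and 15 transport (right) kinesins, as CPM of all counted reads, in each library (points, 2 per group; short line, mean), untreated in grey and torkinib in orange. The mitotic sum dropped in each line, to 99.9 ± 1.76 in SKBR3, whereas the transport sums of untreated and torkinib libraries stayed of the same order.

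Among transport kinesins, KIFC2 rose and KIF1C fell in all lines. KIFC2, a minus-end kinesin known from nerve cells, was at 13.7 and 18.5 CPM in untreated 94T778 and 54.9 and 58.01 with torkinib, and at 9.88 and 11.9 and then 25.6 and 23.1 in A375. It was at 12.5 and 12.2 and then 39.5 and 38.7 in SKMEL28 and at 51.3 and 43.5 and then 79.2 and 86.01 in AU565. In SKBR3 it was at 67.2 and 47.2 and then 76.6 and 66.9. The groups were apart in 4 lines and overlapped in SKBR3, where the higher untreated library exceeded the lower torkinib library. The average change was 1.15 (SE 0.07; edgeR adjusted p = 9.06e-18). The SKBR3 call (0.34; edgeR adjusted p = 0.0179) was lost without untreated SKBR3 replicate 2 (0.09; adjusted p = 0.597) and without torkinib SKBR3 replicate 1 (0.23; adjusted p = 0.202). Of the KIFC2 exon bases, 21.7% overlap FOXH1 on the other strand (GENCODE 29), and FOXH1 itself had 0 to 5 counts in each library.

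KIF1C, which carries vesicles and RNA to the cell edge, was at 282 and 262 CPM in untreated AU565 and 157 and 169 with torkinib. It was at 194 and 207 and then 163 and 174 in 94T778, and at 149 and 137 and then 119 and 111 in SKMEL28. It was at 115 and 110.4 and then 100.2 and 90.3 in A375 and at 187 and 211 and then 172 and 173 in SKBR3. The groups were apart in each line, but the fall was small outside AU565, where it was -0.74 (SE 0.08; edgeR adjusted p = 5.13e-10). The calls in the other 4 lines, from -0.31 to -0.21, were each lost in at least 1 alternative, with edgeR adjusted p up to 0.298 in SKBR3 and 0.233 in A375. In 94T778 it was lost without untreated replicate 2 (-0.20; adjusted p = 0.110) and in SKMEL28 without untreated replicate 1 (-0.25; adjusted p = 0.0507).

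KIF13A and KIF13B, relatives that carry endosomes and membrane proteins, mostly rose. KIF13A went from 41.01 and 40.7 to 92.5 and 99.03 CPM in AU565, from 37.02 and 33.4 to 55.97 and 66.1 in A375 and from 32.9 and 38.1 to 63.7 and 68.04 in SKBR3. It went the other way in 94T778, from 143 and 141 to 113 and 118, and in SKMEL28, from 116 and 109.7 to 92.6 and 87.1. No group pair overlapped, and the lines with the higher untreated level were those in which it fell. The change ran from -0.32 in SKMEL28 to 1.23 in AU565 and differed between lines (edgeR adjusted p = 3.09e-14). KIF13B went from 28.3 and 39.99 to 81.96 and 83.8 in SKBR3, from 40.5 and 36.9 to 65.9 and 71.97 in AU565, and from 16.7 and 13.6 to 25.4 and 23.5 in 94T778. It went from 39.6 and 43.6 to 55.3 and 54.1 in SKMEL28, and the A375 libraries overlapped at 36.5 and 30.2 and then 28.7 and 31.1. Its average change was 0.60 (SE 0.06; edgeR adjusted p = 1.22e-11); the SKMEL28 call was lost without untreated SKMEL28 replicate 1 (0.33; adjusted p = 0.0537).

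The kinesins of the KIF3 group, which pair with each other to carry vesicles and ciliary cargo, did not move together. KIF3C fell from 89.97 and 80.3 to 21.1 and 25.04 CPM in A375, from 39.3 and 36.3 to 15.4 and 15.7 in 94T778 and from 138 and 131 to 92.6 and 88.9 in SKMEL28. In the breast lines its level was low, at 3.12 and 4.10 untreated and 7.54 and 5.42 with torkinib in SKBR3 and 2.23 and 2.33 and then 0.950 and 0.731 in AU565. The groups were apart in each line, with SKBR3 alone higher after torkinib. That rise (0.80; edgeR adjusted p = 0.0107) was lost without untreated SKBR3 replicate 1 (0.62; adjusted p = 0.0964) or torkinib SKBR3 replicate 1 (0.55; adjusted p = 0.168), and the AU565 fall of -1.44 without torkinib AU565 replicate 2 (-1.24; adjusted p = 0.0804). The A375 change was -1.90 (SE 0.11; edgeR adjusted p = 8.14e-17). KIF3A and KIF3B, the partners in the kinesin of cilia, changed little. KIF3A rose in 94T778 (0.40) and SKMEL28 (0.22; lost in 7 alternatives), KIF3B rose in SKBR3 (0.46; without torkinib SKBR3 replicate 2, 0.27 with edgeR adjusted p = 0.124), and the average call of KIF3A (edgeR adjusted p = 0.0496) was lost in 16 of the 20 fits that left out 1 library.

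Of the conventional kinesins, KIF5B, present in most cell types and the carrier of mitochondria and many vesicles, was at 347 and 310.1 CPM in untreated A375 and 233 and 234 with torkinib, at 296 and 322 and then 235 and 234 in SKMEL28, and at 66.3 and 88.5 and then 98.04 and 121 in SKBR3. It fell in A375 (-0.49) and SKMEL28 (-0.40), rose in SKBR3 (0.50) and was not called in 94T778 (-0.04) or AU565 (-0.15). KIF5C, mainly a nerve cell form, fell from 14.2 and 12.04 to 3.19 and 3.37 in A375 and rose from 2.54 and 2.74 to 6.76 and 3.65 in SKMEL28. In the other lines it was at 1.71 and 2.52 and then 2.78 and 4.15 in 94T778, 5.14 and 4.25 and then 7.14 and 6.53 in SKBR3, and 4.99 and 5.76 and then 5.13 and 2.78 in AU565. Its groups overlapped in AU565 and not in A375, SKMEL28, 94T778 or SKBR3. The A375 change was -2.00 (SE 0.27; edgeR adjusted p = 1.31e-07), while the SKMEL28 change of 1.00 rested on torkinib replicate 1 (without it 0.46; adjusted p = 0.413). KIF5A had no counts in 94T778 and SKMEL28 and was called in no line.

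The remaining transport kinesins changed in some lines. KIF1B, a carrier of mitochondria and synaptic vesicle precursors, rose in 94T778 (0.45) and SKBR3 (0.64) and fell in A375 (-0.36) and AU565 (-0.31). KIF1A, a motor of synaptic vesicle precursors, was found mainly in A375, where it fell from 15.7 and 17.3 to 4.26 and 5.47 CPM (-1.78; edgeR adjusted p = 1.58e-07). KIF16B, a carrier of early endosomes, fell in A375 (-1.07) and was called in no other line. KIFC3, a minus-end kinesin of cell junctions, fell in SKBR3 (-1.13) and AU565 (-0.83), from 90.2 and 83.9 to 39.9 and 39.4 CPM and from 101 and 97.6 to 49.8 and 61.4, and was called in none of the other lines. KIF17, known from dendrites, had 9 counts in untreated SKBR3 and 1 with torkinib, a ratio of 8.31 with an exact 95% binomial interval of 1.15 to 364, and its SKBR3 call was lost in 6 alternatives.

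**Figure D4:**
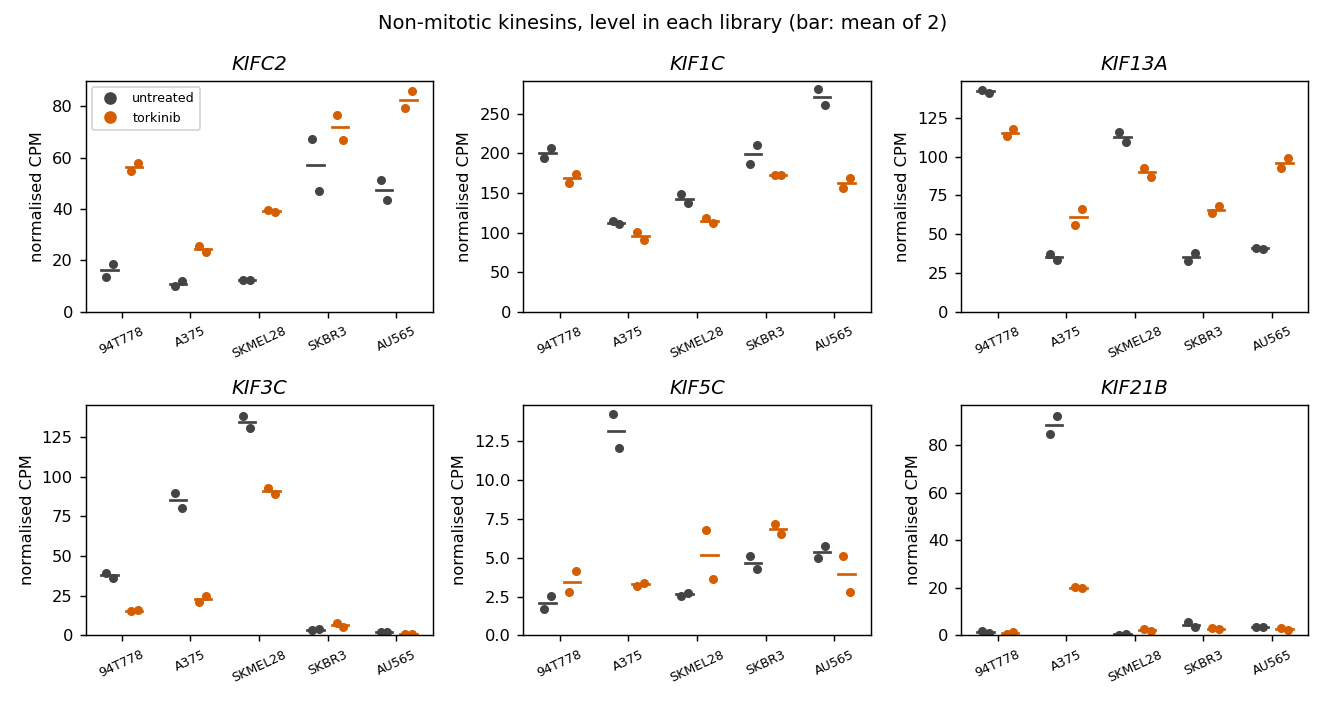
Normalised CPM of KIFC2, KIF1C, KIF13A, KIF3C, KIF5C and KIF21B in each library (points, 2 per group; short line, mean), untreated in grey and torkinib in orange, with a separate scale per gene. KIFC2 is higher and KIF1C lower with torkinib on average in each line, while the other 4 genes move in different directions in different lines, as KIF13A does between AU565 (1.23) and SKMEL28 (-0.32).

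Of the 5 cilium kinesins, KIF24 fell in each line. KIF24 shortens centriolar microtubules and holds back the growth of cilia in dividing cells. It was at 20.8 and 22.01 CPM in untreated 94T778 and 6.44 and 6.04 with torkinib, at 13.3 and 13.9 and then 2.74 and 5.68 in A375, and at 16.4 and 18.5 and then 6.87 and 6.76 in SKMEL28. It was at 8.26 and 8.64 and then 2.18 and 2.23 in SKBR3 and at 9.14 and 8.91 and then 1.52 and 1.32 in AU565. The groups were apart in each line. Its average change of -1.90 (SE 0.11; edgeR adjusted p = 4.58e-18) lay within the range of the mitotic kinesins, and its promoter, shown above, carried the CHR variant and 3 CCAAT strings.

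KIF27, a relative of the hedgehog pathway kinesin KIF7, rose in 94T778 from 6.66 and 6.55 to 17.8 and 16.9 CPM (1.39; edgeR adjusted p = 2.17e-07). Its calls in SKBR3 (1.21) and AU565 (1.65), at levels of 3.18 and 1.91 and 2.09 and 2.78 CPM with torkinib, were lost without 1 library, with edgeR adjusted p up to 0.290 and 0.0644. KIF7 itself was at 59.6 and 58.7 CPM in untreated SKMEL28 and 49.4 and 46.1 with torkinib, at 25.4 and 31.1 and then 23.3 and 22.5 in 94T778, and at 17.3 and 20.02 and then 21.4 and 18.7 in A375. The breast lines held little of it, with 1.47 and 1.46 and then 1.19 and 0.637 in SKBR3 and 1.06 and 0.548 and then 2.47 and 1.61 in AU565. Its groups overlapped in A375 and in no other line. It fell in SKMEL28 (-0.30) and rose in AU565 (1.23), and both calls were lost in alternatives, with edgeR adjusted p up to 0.117 and 0.188. KIF9, a kinesin of motile cilia, rose in A375 (0.68; edgeR adjusted p = 0.00199), and 13.003% of its exon bases overlap the antisense gene KIF9-AS1. KIF6 was called in no line in the main fit.

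Among the 5 other kinesins, KIF21B, which limits microtubule growth, had the widest range. It was at 84.97 and 92.5 CPM in untreated A375 and 20.2 and 19.8 with torkinib, and at 0.391 and 0.477 and then 2.51 and 1.89 in SKMEL28. It was at 1.88 and 1.01 and then 0.631 and 1.51 in 94T778, at 5.69 and 3.37 and then 2.98 and 2.55 in SKBR3, and at 3.72 and 3.56 and then 3.23 and 2.49 in AU565. A375 stood far above the other lines before and after treatment. The changes were -2.15 in A375 and 2.28 in SKMEL28, and they differed by 4.43 (SE 0.52; edgeR adjusted p = 2e-08). KIF21A, its relative, rose in SKMEL28 (0.98) and SKBR3 (0.84). KIF26A fell in SKBR3 (-0.93) and AU565 (-0.79), KIF26B fell in 94T778 (-0.84), and KIF12 fell in SKBR3 (-0.87; edgeR adjusted p = 0.00974), a call lost in 3 alternatives.

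**Figure D5:**
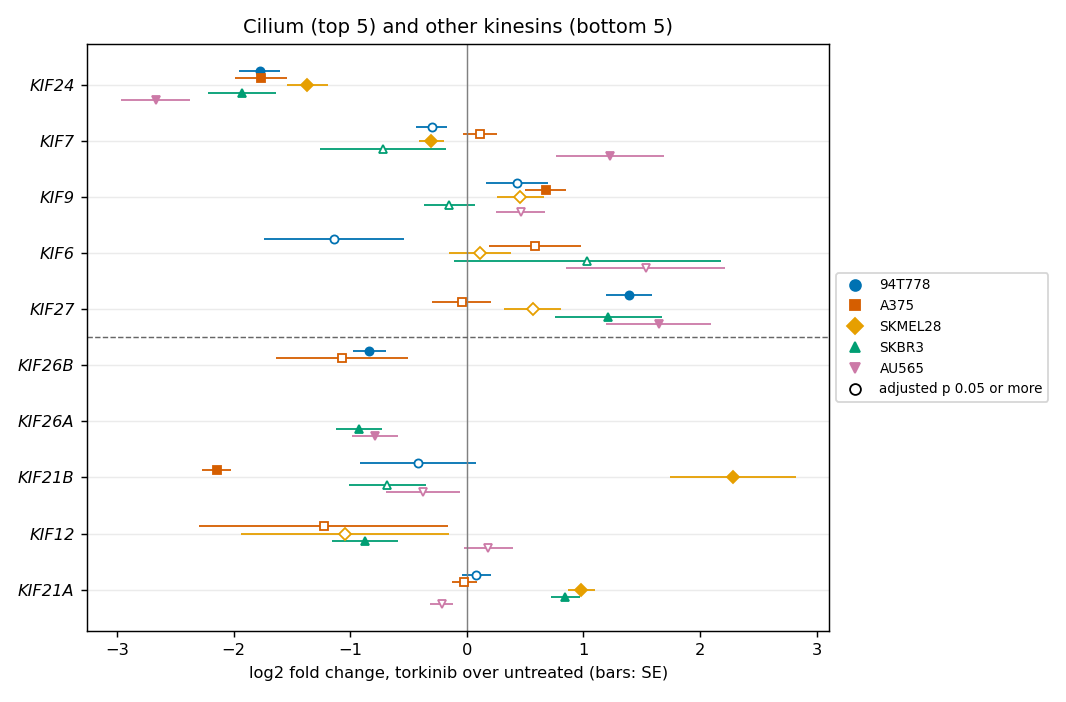
Log2 fold change with torkinib of the 5 cilium kinesins (above the dashed line) and the 5 other kinesins (below it), 1 point per line with its standard error, open where the edgeR adjusted p was 0.05 or more; gene-line pairs with 3 or fewer counts in both groups are not drawn. KIF24 lies left of 0 in each line, and KIF21B lies at -2.15 in A375 and 2.28 in SKMEL28.

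Untreated levels differed between lines for 38 of 38 kinesins (edgeR's F test), as for 96.3% of all genes. Several of the less abundant kinesins were found mainly in 94T778 or in both breast lines, which derive from the same patient. KIF26B was at 49.8 and 43.5 CPM in untreated 94T778 and at most 1.70 on average elsewhere. KIF26A was at 18.4 and 18.9 in SKBR3 and 16.7 and 14.3 in AU565, and KIF12 at 9.18 and 6.89 and 10.9 and 8.64, both under 1 CPM in the other lines.

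Levels of different genes were compared as normalised CPM per kilobase of exon (GENCODE 29). Before treatment the most abundant were KIF5B (51.6) and KIF2C (46.3) in 94T778, KIF5B (55.9) and KIF2C (40.5) in A375, and KIF5B (52.6) and KIF23 (43.2) in SKMEL28. They were KIF22 (46.3) and KIF2C (32.4) in SKBR3 and KIF22 (42.3) and KIF1C (34.3) in AU565, so a mitotic kinesin was among the first 2 in each line. With torkinib the first 2 were KIF5B (50.1) and KIF1C (21.3) in 94T778, KIF5B (39.7) and KIF2A (22.8) in A375, KIF5B (39.9) and KIF2A (20.4) in SKMEL28, KIF1C (21.8) and KIFC2 (19.7) in SKBR3, and KIFC2 (22.7) and KIF5B (20.9) in AU565. The mitotic kinesins left there were KIF2A, in both melanoma lines.

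Partners of the kinesins were read from lists of known genes. On the average of the 5 lines, 28.1% of all genes were called lower and 28.3% higher, and of the kinesins 19 of 38 were lower and 8 higher. Of 12 division partners, 11 were lower, among them TPX2, a spindle assembly factor that binds KIF11 and KIF15 (-3.09, SE 0.04), PRC1, the microtubule bundler that recruits KIF4A (-2.99, SE 0.05), and NUSAP1, a spindle microtubule binder (-3.45, SE 0.06). NUMA1, which focuses spindle poles, was the 1 higher (0.24). CENPE, the centromere kinesin whose symbol lies outside the rule, changed by -2.95. All 10 other division genes were lower, with TOP2A at -3.12, PLK1 at -3.78 and AURKA at -3.42.

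Partners of transport moved in both directions. Of 15 tested light chains and cargo adaptors, 3 were lower and 9 higher, among them MAPK8IP1 (0.72) and MAPK8IP3 (0.51), adaptors that link kinesin to vesicles. Of 27 dynein and dynactin genes, 10 were lower and 9 higher; NDE1, a dynein regulator that also acts in mitosis (-1.31), ACTR1A, the filament of dynactin (-0.94), and the light chain DYNLL1 (-0.72) were lower. Averages hide part of this, since 10 of the 27 were called in opposite directions in different lines, against 24% of all genes, and 25 of 27 differed in their change between the 5 lines, against 68.4% of all genes. Of 14 tested tubulins, 9 were lower and 1, TUBB3, was higher, with TUBA1B at -1.50, TUBB at -0.87 and the gamma-tubulin TUBG1 at -1.42. These average changes are from edgeR.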

How the data were processed

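Total RNA was sequenced, 1 file per library, and the deposited files hold raw counts of reads per gene symbol. The submitters' processing notes name the build hg19 (GRCh37), the aligner HISAT2 2.04, the counter HTSeq 0.6.1 and limma 3.34.9. How they were set, which annotation was used and whether strand was counted is not given in the sources used here, so reads of overlapping genes on opposite strands cannot be told apart. The counter's summary lines entered neither library sizes nor tests, and 47.8 to 62.4% of reads were counted to genes. Counts were normalised with TMM, filtered with filterByExpr and fitted over all 20 libraries with edgeR 4.0.16 (R 4.3.3; quasi-likelihood, Benjamini-Hochberg), after the fit was tested on simulated data. Normalised CPM use the TMM library sizes, and these values are shares of counted RNA, not amounts per cell. A gene without counts in a group was given no average change. Alternatives were DESeq2 1.42.0, limma-voom 3.58.1, other factors, no filter, each line alone, a replicate block and each library left out. Values in every library were given for the 4 mitotic kinesins with the largest and the 2 with the smallest average change, for non-mitotic kinesins called in 1 direction in 4 or more lines, for the 4 with the widest range among those called in both directions, and otherwise where they illustrate a sentence; partners were named by the smallest p, except NUMA1, CENPE, MKI67 and TUBB3, named after their values were seen. One partner that this rule names is not reported here. Members, lists and motifs were chosen with earlier results of these data known. Same-numbered replicates deviated together weakly in SKBR3 (correlation 0.17). They did not in 94T778, A375, SKMEL28 or AU565 (correlations -0.11, -0.01, 0.01 and -0.03). No pairing was used in the main fit. Exact binomial intervals cover counting error only. No protein sequences were used.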

Additional observations from a re-analysis of the deposited data

Results flagged for a closer look

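The change with torkinib differed between the 5 lines for 29 of 38 kinesins, against 68.4% of all genes. The test was edgeR's F test of equal change, adjusted over all genes, at doses that also differed. For mitotic kinesins the adjusted p was 1.22e-12 for KIF2C, 1.35e-12 for KIFC1, 5.25e-12 for KIF20A, 8.85e-12 for KIF4A, 1.88e-09 for KIF11, 3.63e-07 for KIF18B, 5.62e-07 for KIF14, 2.27e-06 for KIF18A, 3.14e-06 for KIF15, 6.12e-06 for KIF23, 9.13e-05 for KIF20B and 1.08e-04 for KIF2A. In these the lines differed in the size of a fall, except that KIF2A was not called in SKBR3.

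For transport kinesins the edgeR adjusted p was 3.09e-14 for KIF13A, 6.91e-11 for KIF3C, 2.43e-09 for KIF1B, 6.24e-09 for KIFC3, 6.82e-08 for KIFC2, 1.62e-07 for KIF13B, 2.16e-07 for KIF5C, 9.55e-07 for KIF5B, 1.73e-06 for KIF16B, 3.82e-04 for KIF1C and 0.00361 for KIF3B. It was 4.35e-09 for KIF21B, 9.63e-09 for KIF21A, 0.00130 for KIF27, 0.0118 for KIF7, 0.0349 for KIF12, which has few counts outside the breast lines, and 0.0415 for KIF24. Groups of 2 libraries were too small to look for a library that stands apart from its group.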

How the results depend on the processing

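No kinesin changed direction past the threshold under any alternative run. DESeq2, limma-voom, DESeq2's size factors, no filter on low counts and fits of each line alone kept each count of calls within 1.5 times and each class median within the spread between replicates; fits of 1 line give no average and no test between lines. With upper quartile factors the mitotic median in A375 was -1.78, the transport medians -0.14 in A375 and 0.0256 on average, and 8 kinesins were higher in AU565 instead of 5. These factors moved the share of lower genes among all calls from 56.8 to 46.7% in A375. Leaving KIF2A and KIF2B out of the mitotic class gave a median of -1.96 in A375, and leaving KIFC2 and KIFC3 out of the transport class gave -0.36 there. Leaving out 1 library at a time gave mitotic medians of -3.14 to -2.96 on average and -2.00 to -1.73 in A375, and transport medians of -0.13 to 0.0400 on average; the cause was not tested. In SKBR3, where the untreated libraries stood apart, it gave 15 to 18 kinesins lower, 6 to 8 higher and mitotic medians of -4.58 to -4.29. With a replicate block, 18 kinesins were lower and 5 higher in 94T778, 22 and 3 in A375, 19 and 5 in SKMEL28, 17 and 9 in SKBR3, and 20 and 5 in AU565, and 27 instead of 29 differed between lines; the numbers do not pair the libraries. Of 151 kinesin calls in the lines and on the average, 21 were ended by some alternative, 1 of them mitotic (KIF2A in AU565). Other alternatives added calls that the main fit lacked. In AU565, KIF21A was lower (-0.22, limma-voom adjusted p = 0.0473) and KIF6 higher (1.55, limma-voom adjusted p = 0.0300). Depth limits KIF17, KIF12, KIF6, KIF1A, KIF5A, KIF26A and KIF26B in the lines where they have few counts.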
